A study of Mus musculus with 6 samples.

Results

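Transcripts of the 4 adult globin genes and of 3 other red cell genes were followed in 6 libraries of mouse liver taken after acetaminophen overdose. The 7 genes were Hba-a1 and Hba-a2 (alpha globin chains), Hbb-bs and Hbb-bt (beta globin chains), Alas2 (the erythroid enzyme that starts heme synthesis), Slc4a1 (the band 3 anion exchanger of the red cell membrane) and Epb42 (protein 4.2, which ties band 3 to the membrane skeleton). They were picked by gene name from the 28476 genes of the deposited table, and the choice was made with their HepKO against Flox difference already known. The difference in these 7 genes is therefore given as a description, and the fit across all genes is no independent test of it.

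All libraries came from C57BL/6 mice that went without food overnight and then received acetaminophen (APAP) at 300 mg/kg into the peritoneum, 24 h before the liver was taken. The 3 Flox and the 3 HepKO libraries differ by genotype, which the labels write as "Flox" and "Nedd4 HepKO" without spelling out the allele or what drives the deletion. The labels give no sex or age, and do not state whether the libraries of a group are separate animals. Untreated livers are not analysed here, and both genotypes had received the drug.

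Red cells carry hemoglobin, a tetramer of 2 alpha and 2 beta chains, each holding a heme. Mature mammalian red cells have no nucleus, but young ones (reticulocytes) keep globin messenger RNA for a short time after leaving the marrow, so whole-organ RNA contains globin transcripts from blood held in the vessels. The adult mouse liver is perfused through wide sinusoids, and it made red cells before birth. In RNA from whole tissue, fewer cells of a type and less RNA per cell cannot be told apart.

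The paired globin genes are near-identical copies, which bears on every value given for a single copy. The coding sequences of Hba-a1 and Hba-a2 were the same at 428 of 429 bases (99.8%), and those of Hbb-bs and Hbb-bt at 443 of 444 (99.8%), in the GENCODE M21 transcripts. The stretches around the only difference of each pair are shown, 5′ to 3′, with the differing base in capitals. Counted from 1 at the A of the start codon, the alpha pair differed by C381T and the beta pair by C417T, both at the third base of a codon.
Hba-a1: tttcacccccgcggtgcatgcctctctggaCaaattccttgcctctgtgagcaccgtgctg
Hba-a2: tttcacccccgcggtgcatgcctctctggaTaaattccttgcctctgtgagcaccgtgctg
Hbb-bs: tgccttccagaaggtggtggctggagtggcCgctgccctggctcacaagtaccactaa
Hbb-bt: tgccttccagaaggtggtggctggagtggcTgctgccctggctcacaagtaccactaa

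Of all 150-base windows of the Hba-a2 transcript, 65.7% occur unchanged in the Hba-a1 transcript, and 48.4% in the other direction. The corresponding shares were 58.7% for Hbb-bs in Hbb-bt and 50.7% for Hbb-bt in Hbb-bs. A read that lies within such a window cannot be assigned to a copy by its own sequence, though the other read of its pair may lie outside. The shares are therefore not shares of reads without an assignment, and the labels do not record how the authors' software divided reads between copies. The sum over the 4 genes is less exposed to this division than any single copy.

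The windows before the transcription starts are shown for reference, and their part in the difference between the groups was not tested. Each holds the 110 bases before the RefSeq start (GRCm38.p6), written 5′ to 3′ on the gene's strand. Capitals mark CACCC and CCAAT and TATAA and the GATA strings AGATAA or TGATAA or AGATAG or TGATAG, on either strand, where neighbouring or overlapping matches merge. The windows are chr11:32283562-32283671 (+) for Hba-a1, chr7:103827929-103828038 (-) for Hbb-bs, chr7:103813924-103814033 (-) for Hbb-bt and chrX:150547307-150547416 (+) for Alas2. RefSeq and the deposited table place some starts differently: 110 of the 110 bases for Hba-a1, 73 for Hbb-bt, 42 for Alas2 and 0 for Hbb-bs lie inside the gene as the table gives it.
Hba-a1: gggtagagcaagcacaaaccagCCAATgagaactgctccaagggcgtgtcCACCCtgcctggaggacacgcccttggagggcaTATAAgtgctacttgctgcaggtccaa
Hbb-bs: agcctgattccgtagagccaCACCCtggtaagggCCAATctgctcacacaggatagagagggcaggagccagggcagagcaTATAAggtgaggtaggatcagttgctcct
Hbb-bt: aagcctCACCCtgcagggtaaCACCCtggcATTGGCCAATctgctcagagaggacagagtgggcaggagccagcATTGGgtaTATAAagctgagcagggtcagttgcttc
Alas2: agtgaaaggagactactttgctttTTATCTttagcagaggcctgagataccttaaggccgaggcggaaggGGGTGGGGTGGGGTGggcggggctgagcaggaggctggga

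The Hba-a2 window shared a run of 107 of 110 bases with that of Hba-a1. All 4 globin windows held at least 1 CACCC, 1 CCAAT and 1 TATAA. Each string is common on its own: of 32851 promoter windows of this length, 29.6% held CACCC, 20.2% held CCAAT and 10.9% held TATAA, while 0.554% held all 3. The Alas2 window held 3 CACCC matches on the opposite strand and 1 GATA string, which 11.5% of windows held, and neither CCAAT nor TATAA. The Epb42 window held none of the strings, and no window is shown for Slc4a1. The strings were chosen after the windows had been seen, and a match is only a run of letters.

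Alpha globin transcripts were several times more abundant in the HepKO livers. Hba-a1 (ENSMUSG00000069919, chromosome 11, 32283511 to 32284465) had 34.6, 40.6 and 55.8 FPKM in Flox replicates 1, 2 and 3, and 315.8, 274.5 and 157.7 FPKM in HepKO replicates 1, 2 and 3. FPKM are fragments scaled to transcript length and to the mapped fragments of the library, so levels can be compared between genes. Every HepKO library lay above every Flox library, and the lowest HepKO value was 2.83 times the highest Flox value. The group means were 43.7 ± 10.9 and 249.3 ± 82.0 FPKM (SD, n = 3), a 5.71-fold difference.

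Hba-a2 (ENSMUSG00000069917, chromosome 11, 32296489 to 32297298) had 32.5, 41.1 and 54.4 FPKM in the Flox libraries and 286.9, 260.7 and 150.7 FPKM in the HepKO libraries, in the same order of replicates. The groups did not overlap, and the means differed 5.46-fold. The ratio of Hba-a1 to Hba-a2 FPKM lay between 0.988 and 1.10 in all 6 libraries, so the copies could not be ranked beyond their spread.

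Beta globin transcripts were also higher in HepKO livers, by smaller factors. Hbb-bs (ENSMUSG00000052305, chromosome 7, 103826534 to 103827928) had 38, 50.1 and 76.5 FPKM in the Flox libraries and 272.5, 246.2 and 162.7 FPKM in the HepKO libraries, a 4.14-fold difference of means. Hbb-bt (ENSMUSG00000073940, chromosome 7, 103812524 to 103813996) had 19.2, 25.7 and 40.3 FPKM in the Flox libraries and 93.7, 101.0 and 74.7 FPKM in the HepKO libraries, a 3.16-fold difference. Neither gene overlapped between groups, and the gap was narrowest for Hbb-bt, whose lowest HepKO value was 1.85 times its highest Flox value. At least as large a fold of mean FPKM, upward, was found for 475 of the 12712 genes that were tested.

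**Figure D1:**
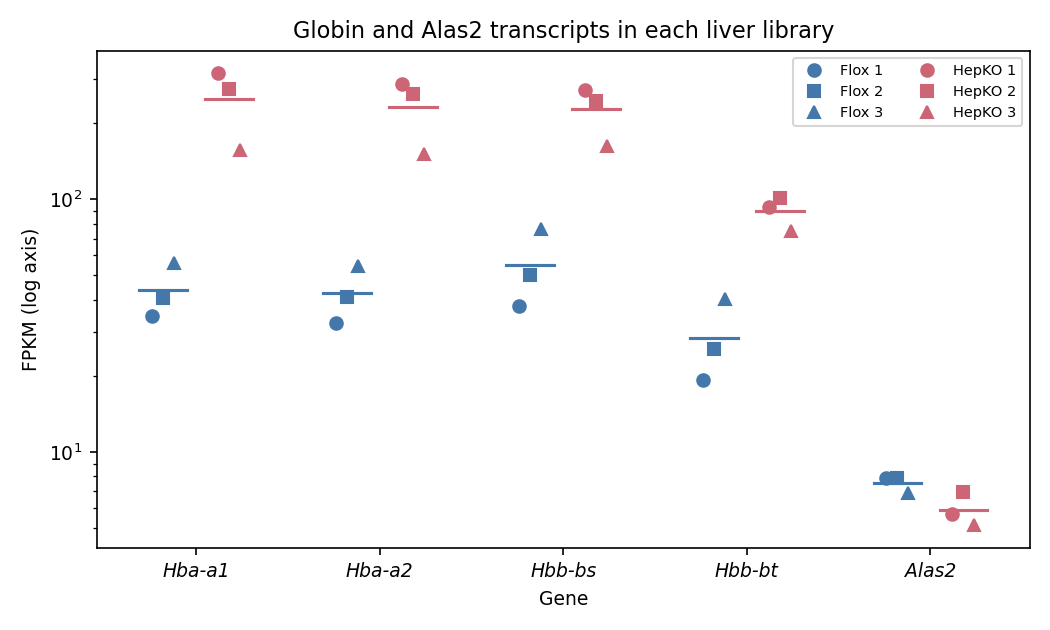
FPKM of the 4 globin genes and Alas2 in each library on a log axis, with Flox in blue, HepKO in red and a bar at each group mean; Slc4a1 and Epb42 are left out because several of their values are 0. The globin points of the HepKO libraries all lie above those of the Flox libraries, while the Alas2 points overlap.

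Summed over the 4 genes, globin transcripts reached 124.3, 157.6 and 227.0 FPKM in Flox replicates 1, 2 and 3, against 968.8, 882.4 and 545.7 FPKM in HepKO replicates 1, 2 and 3. The ratio of means was 4.71. In the Flox libraries this was 0.0272% to 0.0492% of all FPKM, and in the HepKO libraries 0.119% to 0.195%. Hba-a1 ranked between 751 and 1179 among the 28476 genes in the Flox libraries and between 135 and 292 in the HepKO libraries, where rank 1 is the most abundant gene.

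The libraries of each group also differed among themselves. Within the Flox group, replicate 3 was highest and replicate 1 lowest for each of the 4 globins, a 1.83-fold span of the sum. Within the HepKO group, replicate 3 was lowest for each of them, a 1.78-fold span. HepKO replicate 1 had 24.6% of its FPKM in mitochondrial genome transcripts, against 16.7% to 18.3% in the other 5 libraries. Without that library the ratio of the globin sums was 4.21, and it was 4.69 with the mitochondrial genes left out of the total and globins taken as a share of the rest.

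The balance between the chains differed between the groups. The ratio of alpha to beta globin FPKM was 1.17, 1.08 and 0.943 in the Flox libraries and 1.65, 1.54 and 1.3 in the HepKO libraries. The groups did not overlap, and the means were 1.06 ± 0.115 and 1.5 ± 0.178 (SD, n = 3). The level was highest for Hbb-bs in the 3 Flox libraries and in HepKO replicate 3, and for Hba-a1 in HepKO replicates 1 and 2. Hbb-bt was lowest of the 4 in every library. Its share of the beta globin FPKM was 33.6%, 33.9% and 34.5% in the Flox libraries and 25.6%, 29.1% and 31.5% in the HepKO libraries. These ratios come from the same contrast by which the genes were chosen, and the division of reads between copies enters the share of Hbb-bt.

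The erythroid heme synthesis enzyme was not higher. Alas2 (ENSMUSG00000025270, chromosome X, 150547375 to 150570638) had 7.88, 7.87 and 6.86 FPKM in the Flox libraries and 5.66, 6.96 and 5.13 FPKM in the HepKO libraries. The groups overlapped, since HepKO replicate 2 lay above Flox replicate 3. The means were 7.54 ± 0.588 and 5.92 ± 0.939 FPKM (SD, n = 3), a HepKO to Flox ratio of 0.785. For each FPKM of Alas2 there were 15.8, 20.0 and 33.1 FPKM of globin in the Flox libraries and 171.0, 126.9 and 106.4 in the HepKO libraries.

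**Figure D2:**
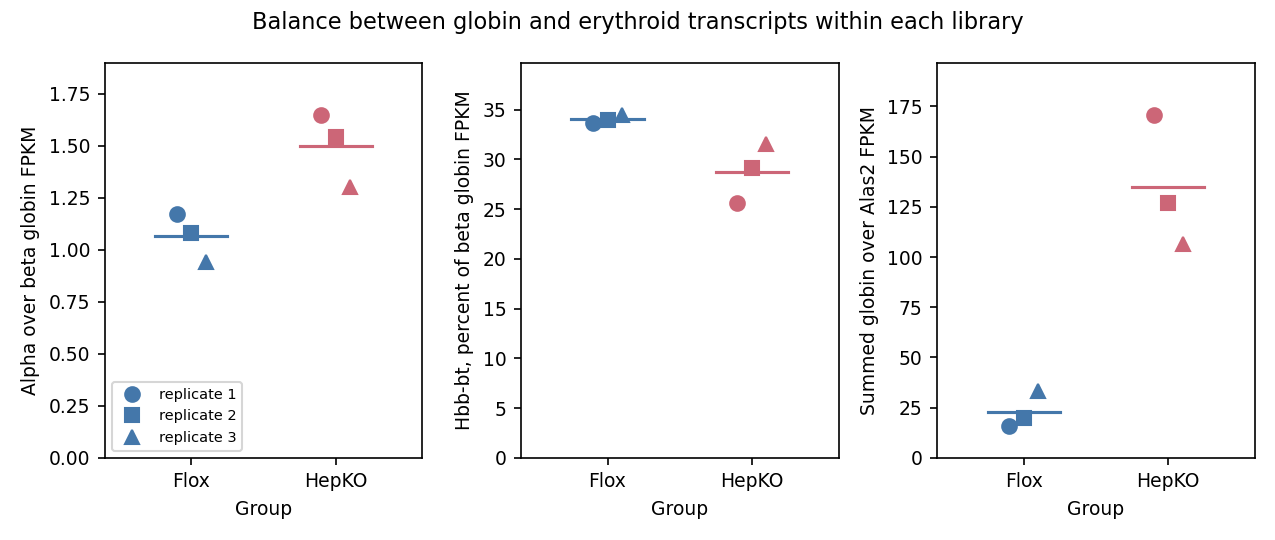
The ratio of alpha to beta globin FPKM (left), Hbb-bt as a percent of beta globin FPKM (middle) and summed globin FPKM over Alas2 FPKM (right), with 1 point a library and a bar at the group mean; all axes start at 0. The 3 HepKO points lie above the 3 Flox points on the left and right and below them in the middle.

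The membrane genes of the group were at or near 0. Slc4a1 (ENSMUSG00000006574, chromosome 11, 102348824 to 102365280) was listed at 0.0477, 0 and 0.0113 FPKM in the Flox libraries and at 0, 0 and 0.0224 FPKM in the HepKO libraries. Epb42 (ENSMUSG00000023216, chromosome 2, 121017891 to 121037072) was listed at 0, 0 and 0.0102 FPKM in the Flox libraries and at 0.024, 0 and 0 FPKM in the HepKO libraries. Both had a mean below the minimum of 0.5 FPKM for testing, and no fold is given for either. The 7 genes therefore do not form a single pattern: 4 were high and higher in HepKO livers, 1 was at a low level in both groups, and 2 were barely detected.

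The limma fit across all genes included 5 of the 7, and 4 of these had an adjusted p of 0.05 or less, all higher in HepKO. Over all 12712 genes tested, 9.33% passed upward, 11.0% downward and 20.3% in either direction. Values that did not overlap between the groups, upward, were found for 4 of the 7 genes and for 17.2% of all genes tested. The log2 fold changes of FPKM + 1 were 2.45 (SE 0.29) for Hba-a1, 2.40 (SE 0.29) for Hba-a2, 2.05 (SE 0.29) for Hbb-bs, 1.68 (SE 0.26) for Hbb-bt and -0.31 (SE 0.13) for Alas2. Nothing is read from these counts or errors, since the genes were chosen on this contrast.

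Nedd4, the ubiquitin ligase gene named in the HepKO label, had 2.18, 2.59 and 2.23 FPKM in the Flox and 0.618, 0.666 and 0.565 FPKM in the HepKO libraries, and fell (limma adjusted p = 0.00148). The labelled tissue matched its markers: Alb, the albumin gene, lay between 22230 and 29075 FPKM in all 6 libraries, and Apoa2, a lipoprotein gene, between 6951 and 8011 FPKM. Neither passed the test (limma adjusted p = 0.792 and 0.959). Of 10 hepatocyte genes, Cps1, a urea cycle enzyme gene, fell from 344 to 143 FPKM and Fgb, a fibrinogen chain gene, rose from 2288 to 4010 FPKM. That is 10.0% in each direction, against 11.0% of all genes downward and 9.33% upward.

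Embryonic globins, which the adult marrow does not make in quantity, stayed low and were not ordered by group. Hbb-y, an embryonic beta-like chain gene of the same cluster, had 4.95, 0.809 and 0.13 FPKM in the Flox libraries and 0.406, 1.56 and 0.261 FPKM in the HepKO libraries. Hba-x, the embryonic alpha-like chain gene, had 1.79, 0.223 and 0.346 FPKM and 0, 0.201 and 0.292 FPKM in the same order, and Hbb-bh1 was at 1.33 FPKM in Flox replicate 1 and at 0.09 FPKM or less in the other 5 libraries. Flox replicate 1 was the highest library for all 3 embryonic genes and the lowest for all 4 adult ones. The 3 tested genes of the list of embryonic and other globins were Hbb-y, Mb and Cygb, of which only Hbb-y is embryonic. None passed, against 20.3% of all genes in either direction, and 3 genes are too few to read a share from. Mb, the muscle globin gene, had means of 10.9 ± 1.98 and 3.65 ± 2.96 FPKM in Flox and HepKO (SD, n = 3, limma adjusted p = 0.0951, and 0.0265 without HepKO replicate 3). Cygb, a globin of stellate cells, had 5.45 and 4.73 FPKM (adjusted p = 0.572).

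Of the genes beside the alpha globins, neither of the pair examined passed the test. Nprl3, whose introns hold the distal control elements of the alpha globin cluster, averaged 2.38 FPKM in Flox and 2.13 in HepKO (limma adjusted p = 0.481), and its neighbour Mpg, a DNA repair gene, had 2.08 and 2.90 FPKM (adjusted p = 0.154). Both were looked at after the globin values had been seen. The pseudogene Hba-ps4, on chromosome 17, and the minor globin Hbq1b were listed at 0 in all 6 libraries.

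Beyond the 7 genes, 51 red cell genes in 3 lists were examined for the same contrast, and the share that passed was near that of all genes. Of 48 found in the table, 23 had enough signal to test. Of these, 1 rose (4.35%, against 9.33% of all genes), 3 fell (13.0%, against 11.0%) and 19 did not pass, so that 17.4% passed in either direction, against 20.3% of all genes. Their median log2 fold change was -0.14, and that of all genes tested was -0.06. The summed level of the 48 genes was 206.6 to 231.1 FPKM over the Flox libraries and 173.6 to 192.8 FPKM over the HepKO libraries. That gap rested on Blvrb, which liver also expresses: without it the sums were 150.3 to 170.7 and 141.9 to 158.8 FPKM and overlapped, a sum chosen after seeing the data. Of the 48, 21 stayed under 0.5 FPKM in every library.

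Most genes of the membrane and skeleton list were at low levels. Of 18 genes found, 12 stayed under 0.5 FPKM in every library. Ank1 (erythroid ankyrin) reached at most 0.036 FPKM. This gene, and the low genes named among the later lists, were chosen after their values were seen. Cd59a, a complement inhibitor on many cell types, was the only 1 of 6 tested past the threshold (16.7%, against 20.3% of all genes). It fell from 8.06 ± 0.534 to 4.97 ± 0.893 FPKM (SD, n = 3, limma adjusted p = 0.022). Aqp1, a water channel, had 18.1 and 14.0 FPKM (adjusted p = 0.217), and Epb41, a gene of the membrane skeleton, had 8.36 and 11.3 FPKM (adjusted p = 0.0527, and 0.0416 without Flox replicate 1).

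Among the genes of late erythroid cells, 1 of 13 tested rose (7.69%, against 9.33% of all genes) and 2 fell (15.4%, against 11.0%). Blvrb, a heme-pathway reductase gene that liver also expresses, fell from 55.8 ± 4.93 to 33.0 ± 1.17 FPKM (SD, n = 3; limma adjusted p = 0.00491). Car2, a carbonic anhydrase gene, fell from 8.89 to 4.76 FPKM (adjusted p = 0.0274), and Bnip3l, which helps to clear mitochondria from maturing red cells and is widely expressed, rose from 23.3 to 31.2 FPKM (adjusted p = 0.0465). Prdx2, Tfrc (the transferrin receptor) and Slc25a38 (a mitochondrial carrier needed for heme synthesis) averaged 25.9, 9.07 and 9.49 FPKM in Flox against 20.0, 6.76 and 7.87 in HepKO, and none passed (adjusted p = 0.116, 0.111 and 0.219). Hemgn, a nuclear protein gene of erythroid precursors, was 0 in 5 libraries and 0.044 FPKM in Flox replicate 3.

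None of the 4 tested erythroid regulators passed, against 20.3% of all genes in either direction, and 4 genes are too few to read a share from. Of the 4, Klf1 and Lyl1 averaged under 0.5 FPKM in Flox and reached the minimum for testing through the HepKO libraries. Gata1, the master transcription factor of red cell precursors, was listed at 0 in the 3 Flox libraries and in HepKO replicate 2, and at 0.053 and 0.148 FPKM in HepKO replicates 1 and 3. Klf1, which drives adult beta globin, had 0.437, 0.682 and 0.376 FPKM in the Flox and 0.832, 0.234 and 0.593 FPKM in the HepKO libraries, which overlapped. Zfpm1, the GATA1 partner FOG1, ranged from 4.74 to 18.1 FPKM over the libraries and overlapped between groups (adjusted p = 0.792). Other regulators were higher in every HepKO library at low levels. Nfe2, a factor of erythroid cells and megakaryocytes, had 0.151, 0.14 and 0.218 FPKM in the Flox and 0.697, 0.547 and 0.85 FPKM in the HepKO libraries, 4.12-fold, and was under the minimum for testing (limma adjusted p = 0.0267 with no filter on low values). Kit, the stem cell factor receptor gene, was likewise untested at 0.262 and 0.543 FPKM, and Lyl1 had 0.331 and 0.757 FPKM (adjusted p = 0.0562). The choice of these 3 genes followed their values.

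The 4 calls among these red cell genes rested on few libraries, except that of Blvrb, which held in each of the 6 fits without 1 library. The count of 4 became 1 without Flox replicate 2, Flox replicate 3 or HepKO replicate 1, and 2 without HepKO replicate 2. Cd59a was lost without Flox replicate 2, Flox replicate 3, HepKO replicate 1 or HepKO replicate 3 (adjusted p = 0.0541 to 0.0738). Car2 was lost without Flox replicate 2, Flox replicate 3, HepKO replicate 1 or HepKO replicate 2 (0.0564 to 0.087), and Bnip3l without any single library but HepKO replicate 3 (0.0878 to 0.143).

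**Figure D3:**
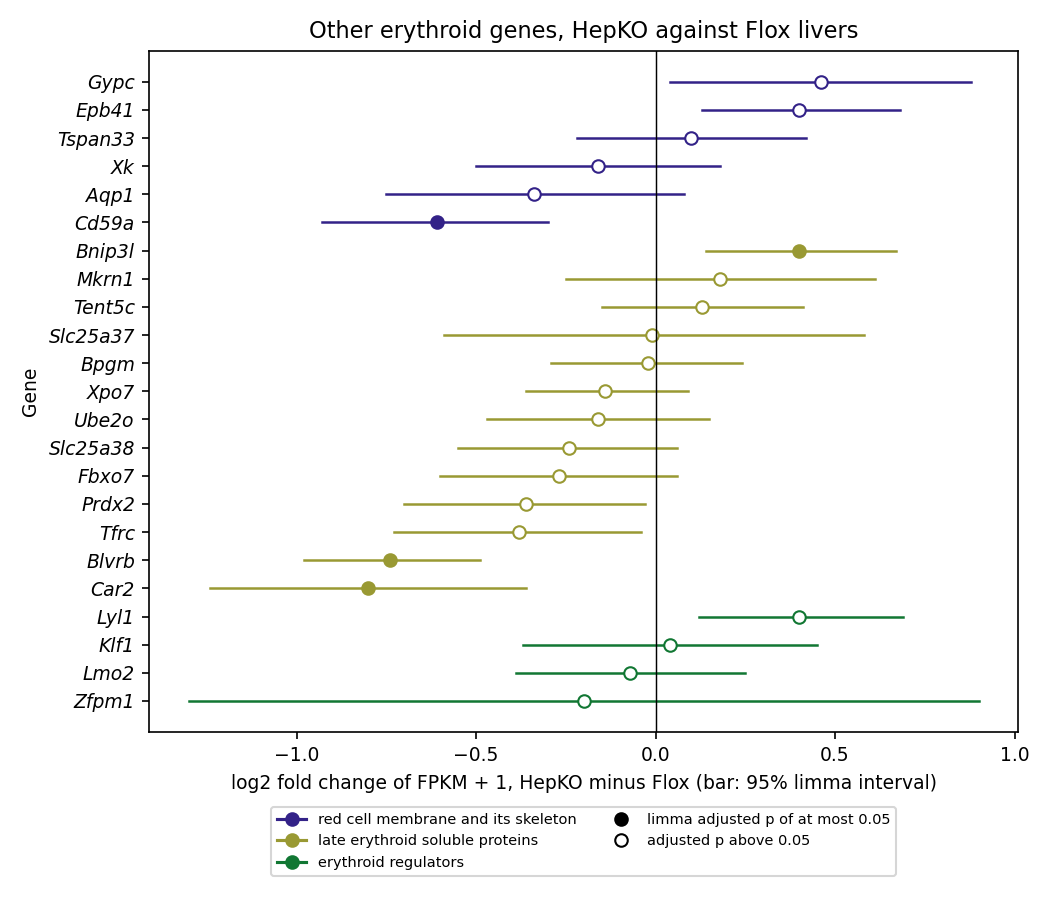
Log2 fold change of FPKM + 1, HepKO minus Flox, for the 23 tested red cell genes outside the 7, with the 95% limma interval and colour by list; filled points passed at an adjusted p of 0.05 and open points did not. The values lie between -0.80 for Car2 and 0.46 for Gypc, far below the 1.68 to 2.45 of the globins.

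The other enzymes of heme synthesis were flat or lower. Of 8 tested, 3 fell (37.5%, against 11.0% of all genes), 0 rose and 5 did not pass, with a median log2 fold change of -0.52. Alad, the second enzyme of the pathway, fell from 58.1 ± 7.52 to 29.7 ± 2.24 FPKM and Cpox, coproporphyrinogen oxidase, from 16.4 ± 1.28 to 8.09 ± 1.04 FPKM (SD, n = 3; limma adjusted p = 0.00439 and 0.00366). Urod fell from 24.0 to 16.7 FPKM (adjusted p = 0.0458), a call lost without any single library but HepKO replicate 3 (0.0702 to 0.125). Alas1, the housekeeping counterpart of Alas2 and the form that hepatocytes use, had 57.8 and 57.6 FPKM (adjusted p = 0.961).

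The handling of hemoglobin and heme outside red cells was mixed. Hmox1, the inducible heme oxygenase gene, had 60.9, 21.8 and 29.5 FPKM in the Flox and 275.3, 239.1 and 236.5 FPKM in the HepKO libraries, and rose (limma adjusted p = 0.00298). The plasma scavenger genes Hp (haptoglobin, for hemoglobin) and Hpx (hemopexin, for heme) averaged 4334 and 4098 FPKM in Flox against 4006 and 3952 in HepKO, and neither passed (adjusted p = 0.713 and 0.865). Among 12 genes, 2 rose (16.7%, against 9.33% of all genes) and 2 fell (16.7%, against 11.0%). Spic, a transcription factor gene of iron-recycling macrophages, rose from 0.369 to 1.14 FPKM (0.0282), having reached the minimum for testing through the HepKO libraries (0.0683 with no filter on low values), while Slc40a1, the iron exporter ferroportin, and Lrp1, the hemopexin receptor, fell from 9.48 to 5.65 and from 24.2 to 17.7 FPKM (0.0498 and 0.0273). The Spic call was lost without Flox replicate 2, Flox replicate 3, HepKO replicate 1 or HepKO replicate 2 (0.0823 to 0.0911), that of Slc40a1 without any library but HepKO replicate 3 (0.0884 to 0.127), and that of Lrp1 without any but HepKO replicate 1 (0.0611 to 0.0999). In all, Slc40a1 was lost under 10 of 14 alternatives. Among these were adding 0.1 or 0.5 FPKM instead of 1 before logs (adjusted p = 0.0541 and 0.0517) and no variance trend (0.0505). The count of 4 was 1 without Flox replicate 2, Flox replicate 3 or HepKO replicate 2, and 2 without Flox replicate 1 or HepKO replicate 1.

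Signals that bear on red cell production were also examined. Of 10 tested, 3 rose (30.0%, against 9.33% of all genes) and 1 fell (10.0%, against 11.0%). The oxygen-sensing genes Egln3, Egln1 and Epas1 rose from 10.1 to 18.8, from 6.41 to 12.2 and from 27.4 to 39.6 FPKM (limma adjusted p = 0.00314, 0.014 and 0.0157), and the transferrin sensor Tfr2 fell from 60.2 to 44.1 FPKM (0.0191). Egln1 was lost without HepKO replicate 2 (0.0531), Epas1 without Flox replicate 2 (0.0619) or HepKO replicate 2 (0.0534), and Tfr2 without Flox replicate 2, Flox replicate 3 or HepKO replicate 2 (0.0528 to 0.0743). The count of 4 was 2 without Flox replicate 2 and 1 without HepKO replicate 2. Hamp, which encodes the iron hormone hepcidin, had 5079 and 6101 FPKM (adjusted p = 0.143). Epo, the erythropoietin gene, had 1.13, 0.89 and 1.33 FPKM in the Flox and 2.17, 1.58 and 1.71 FPKM in the HepKO libraries, with no overlap, but did not pass (adjusted p = 0.0688). It was chosen after its values were seen.

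Neutrophil transcripts were also higher in the HepKO libraries. All 10 tested neutrophil genes passed upward, against 9.33% of all genes. Of them, 6 averaged under 0.5 FPKM in Flox and reached the minimum for testing through the HepKO libraries, so the count is no support. The 4 at or above it in both groups, S100a8, S100a9, Retnlg and Csf3r, rose. The summed level of the list went from 11.0 to 21.1 FPKM in the Flox libraries to 141.6 to 165.4 FPKM in the HepKO libraries. S100a9 and S100a8, abundant calcium-binding proteins of neutrophils, rose from 8.56 to 73.2 and from 4.94 to 32.4 FPKM (limma adjusted p = 0.000566 and 0.00358). Retnlg rose from 1.61 to 21.5 FPKM (0.000428). Il1r2, a decoy receptor gene and 1 of those 6, went from 0.327 to 6.06 FPKM (0.00203, and 0.00883 with no filter on low values). The granule protease gene Elane, a marker of neutrophil precursors, was 0 in 5 libraries. The granule protein gene Ngp, also 1 of those 6, averaged 0.0462 and 2.40 FPKM in Flox and HepKO. Ltf, another granule protein gene, averaged 0 and 0.0636 FPKM and was not tested. Unlike the globins, the neutrophil sum had its lowest Flox value in replicate 2 and its highest HepKO value in that replicate.

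The platelet list was also higher in sum, at low levels. The 15 genes summed to 8.02 to 12.1 FPKM in the Flox and 19.8 to 26.2 FPKM in the HepKO libraries. Of 7 tested, 3 rose (42.9%, against 9.33% of all genes) and 0 fell. Pf4, platelet factor 4, had 1.57, 1.16 and 1.96 FPKM in the Flox and 6.45, 7.89 and 4.55 FPKM in the HepKO libraries (limma adjusted p = 0.00429). Ppbp, a platelet chemokine gene, rose from 0.67 to 3.87 FPKM (0.0274), a call lost without Flox replicate 2, HepKO replicate 1 or HepKO replicate 2 (0.07 to 0.0881). Gng11 rose from 4.55 to 6.25 FPKM (0.0388), lost without any 1 of the 6 libraries (0.0676 to 0.121). The count of 3 was 1 without Flox replicate 2, HepKO replicate 1 or HepKO replicate 2.

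Lymphocyte genes were at low levels in both groups. None of 12 reached the minimum for testing, their sums were 0.473 to 2.19 FPKM in the Flox and 0.806 to 1.77 FPKM in the HepKO libraries, and Ms4a1, a B cell surface gene, was 0 throughout. The most abundant were Jchain, with 0.319 and 0.259 FPKM, and Nkg7, with 0.246 and 0.198 FPKM, in Flox and HepKO livers. The part of blood content, of neutrophils or of platelets in the globin difference was not tested.

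The vessel lining in which blood is held had genes called in both directions. Of 10 sinusoidal endothelial genes, 3 rose (30.0%, against 9.33% of all genes), 1 fell (10.0%, against 11.0%) and 6 did not pass. The 10 genes summed to 37.2 to 47.1 FPKM in the Flox and 40.4 to 51.9 FPKM in the HepKO libraries. Lyve1, a hyaluronan receptor gene, rose from 5.80 to 14.2 FPKM and Kdr, the VEGF receptor 2 gene, fell from 2.29 to 0.805 FPKM (limma adjusted p = 0.00274 and 0.00328). Pecam1 rose from 2.57 to 4.44 FPKM and Stab1 from 2.94 to 4.58 FPKM (0.0373 and 0.0366), both lost without any single library but HepKO replicate 3 (0.0724 to 0.115 and 0.0534 to 0.115). Clec4g had 12.1 and 7.85 FPKM (adjusted p = 0.0578). The count of 4 was 2 without Flox replicate 1, Flox replicate 3, HepKO replicate 1 or HepKO replicate 2.

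**Figure D4:**
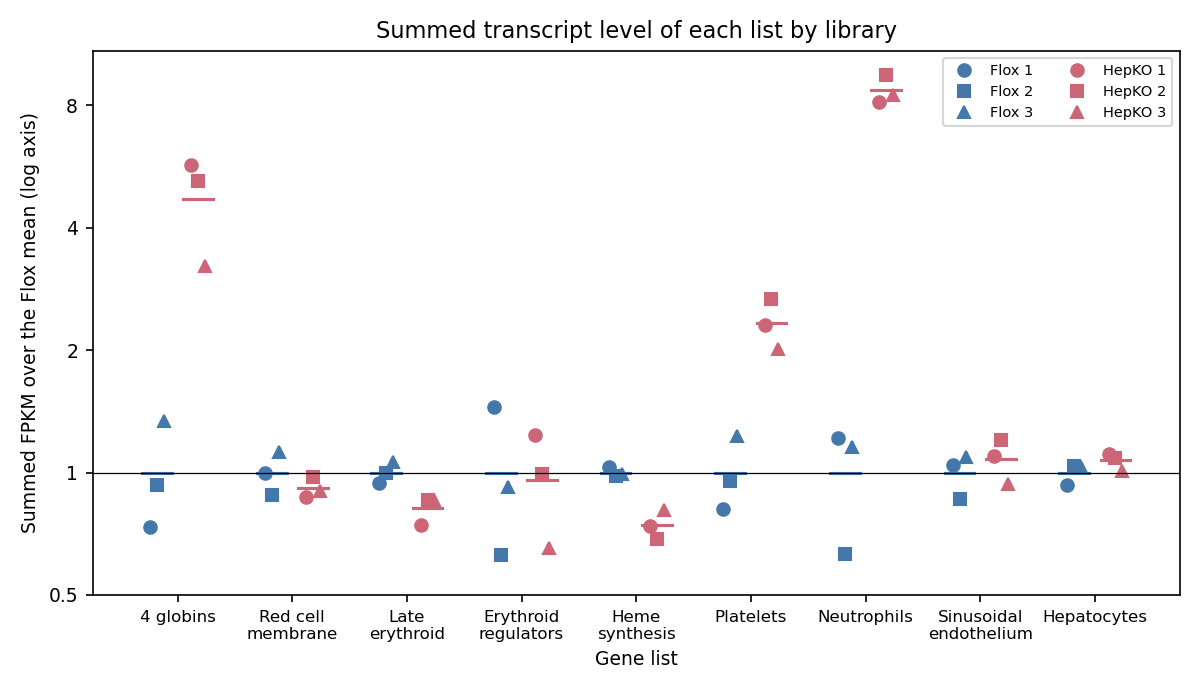
Summed FPKM of the 4 globins and of 8 gene lists in each library, divided by the mean of the Flox libraries, on a log axis, with a bar at each group mean. Globins, platelet and neutrophil genes lie above the Flox libraries in all 3 HepKO libraries. The sums of the red cell membrane, late erythroid and erythroid regulator lists lie near or below 1 on average. Such sums follow their most abundant genes. Zfpm1 had 18.1 of the 21.4 FPKM of the regulators in Flox replicate 1, and the low regulators Nfe2, Kit and Lyl1 hardly enter that sum.

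Among the 9558 other genes averaging 1 FPKM or more and carrying a proper symbol, the profiles nearest to that of the summed globins over the 6 libraries were those of Plaur, Thbs1, Thbd, Ndufa4l2, Ch25h and Ndrg1. Likeness was the root mean square difference of log2(FPKM + 1), each centred on its own mean, and it ran from 0.18 for Plaur to 0.27 for Ndrg1. Plaur, the urokinase receptor gene, had 1.06, 1.2 and 1.79 FPKM in the Flox and 10.6, 11.9 and 7.93 FPKM in the HepKO libraries. Thbs1, the matrix protein thrombospondin 1, had 1.54, 1.75 and 1.98 FPKM and 17.1, 16.0 and 9.4 FPKM, and it followed the globins' order of libraries within both groups, as did Ndufa4l2. Thbd, the endothelial thrombin receptor thrombomodulin, had 1.42, 1.64 and 1.72 FPKM and 11.0, 12.1 and 7.08 FPKM. None of the 6 is a red cell gene. Of the 48 red cell genes outside the 7, however, only 20 averaged 1 FPKM or more and could be ranked. By mean FPKM the 6 differed from 5.55-fold for Ch25h to 9.13-fold for Ndufa4l2, against 4.71-fold for the summed globins. Adding 1 FPKM before taking logs shrinks the changes of low genes, and Ndufa4l2 averaged 0.565 FPKM in Flox. The measure is a description over 6 libraries that share the same group difference.

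**Figure D5:**
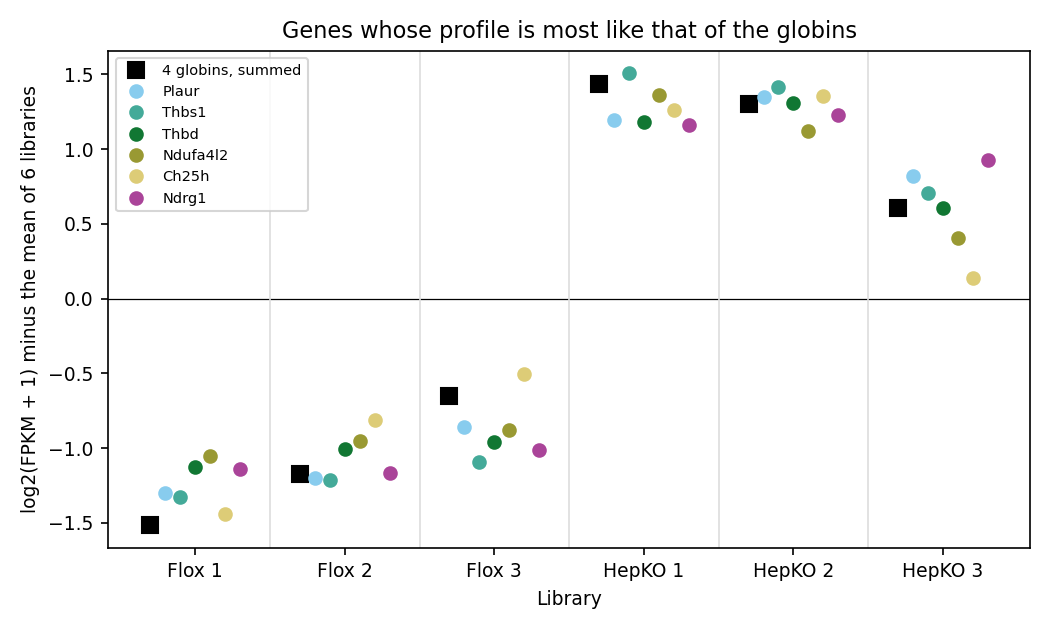
Log2(FPKM + 1) of the summed globins (black squares) and of the 6 nearest genes (coloured points) in each library, each centred on its mean over the 6 libraries; the libraries of a group have no order. All 7 profiles lie below their mean in the Flox libraries and above it in the HepKO libraries.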

How the data were processed

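Poly(A) RNA from mouse liver was read as 6 dUTP-marked paired-end libraries, per the labels' protocols. The authors deposited 1 table with the FPKM of each library. Tools listed in the submitters' processing notes, with no role stated, are StringTie 1.3.4d, HISAT2 2.0.4, cutadapt 1.9, edgeR and DESeq2. No source used here names the genome build. GENCODE M21 (GRCm38) holds 28396 of the 28476 identifiers, 25582 of them at the same position, among these 5 of the 7 genes. Gene coordinates are printed as in the table, whose fold change, p and q columns were not used.

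FPKM are not counts, and depth is unknown: the most frequent ratio of low values between 2 libraries held only 4.51% to 7.41% of them. Library sums were 456176 to 496303 FPKM. The 12712 genes averaging 0.5 FPKM or more were tested with limma 3.58.1 (R 4.3.3) on log2(FPKM + 1), by genotype with a variance trend, two-sided, with Benjamini-Hochberg adjustment at 0.05. These log2 fold changes understate changes of low genes. Folds are ratios of mean FPKM. The fit was tested on simulated data. Since separate animals are not stated, p-values reflect only how these libraries vary. Other steps used Python 3.11.15, pandas 2.3.3 and matplotlib 3.10.9.

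The genes, the lists and the rule for naming were chosen with earlier results of these data known. Of 152 entries in 12 lists, 146 matched. The rule names the 7 genes, Nedd4, every called red cell gene and the 6 most abundant others, up to 4 called and the 2 most abundant of each further list, and the 6 nearest profiles. Others were chosen after their values were seen. Alternatives were other pseudocounts, filters, scalings, no trend, a block for the replicate number, and fits without each library in turn.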

Additional observations from a re-analysis of the deposited data

How the results depend on the processing

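The ratio of summed globin FPKM (4.71) ranged from 4.16 to 5.67 without 1 library. It was 5.60 as a ratio of medians, 5.00 after median-ratio rescaling and 4.70 when libraries were brought to 1 sum that left out the 7 genes and the mitochondrial genes. The alpha to beta ratio of HepKO over Flox (1.40) ranged from 1.33 to 1.5 without 1 library. Under the other pseudocounts and the rescalings, the log2 fold changes of the 4 globins and Alas2 moved by less than the SD between libraries. The filters, the trend and the replicate block cannot change these values. With 3 libraries in a group, leaving out 1 cannot move them by as much as that SD, so those fits are no check of them. The count of all genes called (2583) was 1551 with the replicate block and 1281 to 2257 without 1 library. That of the red cell genes (4) was 2 with the block and 1 to 4 without 1 library. Same-numbered libraries did not deviate together (Pearson r -0.025 to 0.003 across genes), so the numbers were not taken as pairs. Among genes that did not pass, the sign of the log2 fold change turned in these cases. Without 1 library, it ran from -0.58 to 0.19 for Zfpm1 (above 0 without Flox replicate 1, and 0.17 without HepKO replicate 3), from -0.19 to 0.07 for Hp, from -0.13 to 0.09 for Hpx, from -0.05 to 0.12 for Alb and from -0.06 to 0.04 for Apoa2. For Alas1 it ran from -0.08 to 0.2, below 0 without Flox replicate 2 or 3 (-0.07) or HepKO replicate 1 (-0.02) or 3 (-0.01). Hp, Hpx and Alb turned without Flox replicate 1, and Hpx (0.03) and Apoa2 also without HepKO replicate 1; Apoa2 was 0.0 without Flox replicate 1. Median-ratio rescaling gave 0.02 for Hpx and 0.05 for Apoa2. The cause was not tested. Depth is unknown, so genes listed at 0 cannot be called absent.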
